A study of Mus musculus with 15 samples.

Results

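The loci described here are the small RNA loci of mouse testis that lie outside annotated repeats and span 29, 30 or 31 nt of the genome, the lengths at which the PIWI protein MIWI is known to hold its piRNAs. They were chosen by length and by the absence of a repeat name alone, and no PIWI protein was immunoprecipitated in these samples. There were 2051623 of them among 8128951 loci, or 25.2%, made up of 674806 loci of 29 nt, 753824 of 30 nt and 622993 of 31 nt. Small RNA of 17 to 40 nt was cut from a gel after extraction from testes of C57Bl/6 males aged 8 weeks, and 15 libraries were sequenced, 3 in each of 5 groups. In the first set, RNA was immunoprecipitated with an antibody against pseudouridine (Ψ-IP), and the input and the unbound flow-through were sequenced beside it with a Perkin Elmer NextFlex kit. In the second set, RNA treated with the carbodiimide CMC was compared with a group that the labels call both untreated and mock treated, with a NEBNext kit. The sources do not say whether replicates came from separate animals, so p-values measure only the spread between these libraries. Libraries held 11575705 to 58399368 counts, of which 47.0 to 58.7% fell in these loci. Levels in the 2 sets cannot be set against each other, because kit and set cannot be told apart.

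piRNAs are the small RNAs of the animal germline that guide PIWI proteins to complementary transcripts. In adult mouse testis most come from long single-stranded precursors read from pachytene clusters. A piRNA starts at a 5′ end that is usually a uridine, its 3′ end is trimmed back to the edge of the PIWI protein that holds it, and the last nucleotide is then 2′-O-methylated. One 5′ end can therefore carry several 3′ ends. Pseudouridine (Ψ) is an isomer of uridine. CMC forms an adduct on Ψ that blocks reverse transcription, so that in a CMC library a modified molecule is expected to be under-represented.

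The sequences below show how 1 start site gave 3 lengths. They are those of the 3 most abundant 5′ ends (by the mean level over the 15 libraries) with all 3 lengths and a reference sequence at hand, of the 5′ end with the smallest p-value for a change of 3′ end in Ψ-IP, and of 2 loci of 29 nt, the one with the largest rise in Ψ-IP against input and the one with the largest fall with CMC among well-covered loci of that length. Letters are those of the reference (GENCODE vM21 transcripts of GRCm38, the same assembly as mm10), with U for T. In the 31-nt runs the first base and the last 3 bases are in capitals, and the last 3 are where the 29-nt, 30-nt and 31-nt variants end. In the 29-nt runs the first and the last base are in capitals.
Gm5878, lncRNA exon, chr6:85112877-85112907, minus strand: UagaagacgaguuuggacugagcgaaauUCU
Gm21269, lncRNA exon, chr7:73824992-73825022, plus strand: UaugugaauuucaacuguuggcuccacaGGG
Opposite strand of 5330409N07Rik, chr12:98447235-98447265, plus strand: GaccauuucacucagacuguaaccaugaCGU
Gm49794, lncRNA exon, chr17:27360319-27360349, plus strand: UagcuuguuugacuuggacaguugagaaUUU
4933440M02Rik, lncRNA exon, chr7:125329853-125329881, minus strand, 29 nt: UaucauuaugccuuuucuucccuacagaU
Opposite strand of 5330409N07Rik, chr12:98447498-98447526, plus strand, 29 nt: UuuguuuguuuuuguugacuuuggauguG
At Gm5878 only the 29-nt and the 31-nt variants end in U, at Gm21269 none does, and at Gm49794 all do. The last sequence holds 18 uridines.

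A reference sequence was at hand for 25.6% of the loci, those wholly within annotated exons of either strand, and for 16.5% and 18.3% of those tested in the Ψ-IP and CMC sets. Every value on bases below describes those loci only. Of all loci of 29 to 31 nt, 52.4% lay outside annotated genes and held 66.0% ± 0.046 (SD, n = 3) of their counts in input. Introns or exon borders held 16.5% of the loci, 3′ UTRs 12.2% and lncRNA exons 6.58%. By length the share outside genes was 52.2% at 29 nt, 51.9% at 30 nt and 53.2% at 31 nt. The 3′ UTR loci were thin, with 2.58% ± 0.046 of the counts in input, and lncRNA exons held 8.05% ± 0.016. Gm21269 was the exon gene with the most counts, at 9262 to 9501 CPM in input (counts scaled so that every library's deposited counts sum to the same total) and 8938 to 9629 in Ψ-IP.

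Counts were concentrated in few loci. A total of 9862 loci held the first 50% of the CPM of the class, while 797870 loci were seen in 1 library only and 98311 were seen in all 15. By cluster, the first 50% of counts came from 10 of 640 piRNA clusters and the first 90% from 43. The cluster at chr17:27269742-27371971 held 6.87% of the class and the cluster at chr18:67026089-67102906 held 6.16%. In input, the share of counts outside repeats that was 29 to 31 nt long ranged over 177 clusters with at least 3000 counts from 21.9% at chr17:27546488-27580957 to 81.6% at chr3:28854080-28883370, with a median of 67.9%. The chr17 cluster was among the lower ones, at 46.0% ± 0.41 (SD, n = 3) in input, and the chr18 cluster stood at 74.1% ± 0.42. In input and Ψ-IP the chr18 cluster was the larger of the 2, at 35330 against 33080 CPM and 35590 against 34320 CPM.

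Ranks of abundance are by the mean CPM over the 15 libraries and need not hold within a set. The first locus of 29 nt by this rank was chr12:98447235-98447263 (plus strand), the shortest form of the 5330409N07Rik start site shown above. Its place rests on the CMC set, where it had 2794, 2749 and 2996 CPM in mock and 3295, 2651 and 3285 with CMC. In input it had 187, 207 and 164, below the 1160, 922 and 1060 of chr11:107995808-107995836, also of 29 nt. Of the 30-nt loci, chr17:27333015-27333044 (within the Gm10505 intron or at its exon border) had 1612, 1110 and 1667 in input. That locus was lower in Ψ-IP, at 718, 613 and 661 (log2 fold change -1.28, SE 0.18, adjusted p = 6.54e-11 by edgeR's quasi-likelihood test), and its libraries did not overlap with those of input. The flow-through held still less of it, 255 to 311 CPM.

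The 30-nt form was the largest class in every library. In input it took 29.5 to 29.9% of the counts outside repeats, against 18.4 to 18.7% for 29 nt and 18.4 to 18.9% for 31 nt. In mock the order was 30, 29 and 31 nt, with 24.7 to 26.04%, 20.1 to 21.1% and 13.1 to 13.4%. The 31-nt and 29-nt classes thus overlapped in input, while the 31-nt class was well below the 29-nt class in mock, in libraries made with different kits.

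In Ψ-IP the 2 longer classes were larger than in input. The 31-nt share was 19.8, 19.98 and 20.6% in Ψ-IP against 18.7, 18.9 and 18.4% in input, and 18.5 to 19.3% in flow-through. The 30-nt share was 30.4% ± 0.31 (SD, n = 3) in Ψ-IP, 29.7% ± 0.18 in input and 28.6% ± 0.47 in flow-through. The 29-nt share was smaller in Ψ-IP than in input, 18.2% ± 0.14 against 18.5% ± 0.15, though it was larger than the 17.6% ± 0.44 of flow-through. Ψ-IP overlapped with neither of the other groups at any of the 3 lengths, which in an exact two-sided permutation test of 3 against 3 libraries gives p = 0.1, the smallest that the design allows. Counting each locus once in place of its reads turned the 29-nt difference from input round, to +0.938 percentage points.

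With CMC the 31-nt share was lower, 12.8, 12.8 and 12.6% against 13.3, 13.4 and 13.1% in mock, with no overlap (exact p = 0.1). The 30-nt share was 24.3% ± 0.87 against 25.5% ± 0.67 (exact p = 0.2) and the 29-nt share 20.03% ± 0.77 against 20.7% ± 0.52 (exact p = 0.4), and the groups overlapped at both lengths. In each of the 3 pairs of libraries with the same number, both shares were lower with CMC (exact sign-flip p = 0.25, the smallest that 3 pairs allow). The shorter MILI-length loci of 25 to 27 nt served as a reference. There were 5.09 to 5.60 counts at 29 to 31 nt for each count at 25 to 27 nt in Ψ-IP, 4.64 to 4.91 in input, 4.39 to 4.80 in flow-through, 2.86 to 3.12 in mock and 2.54 to 2.79 with CMC. Ψ-IP stood above both other groups and CMC below mock without overlap (exact p = 0.1 each).

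**Figure D1:**
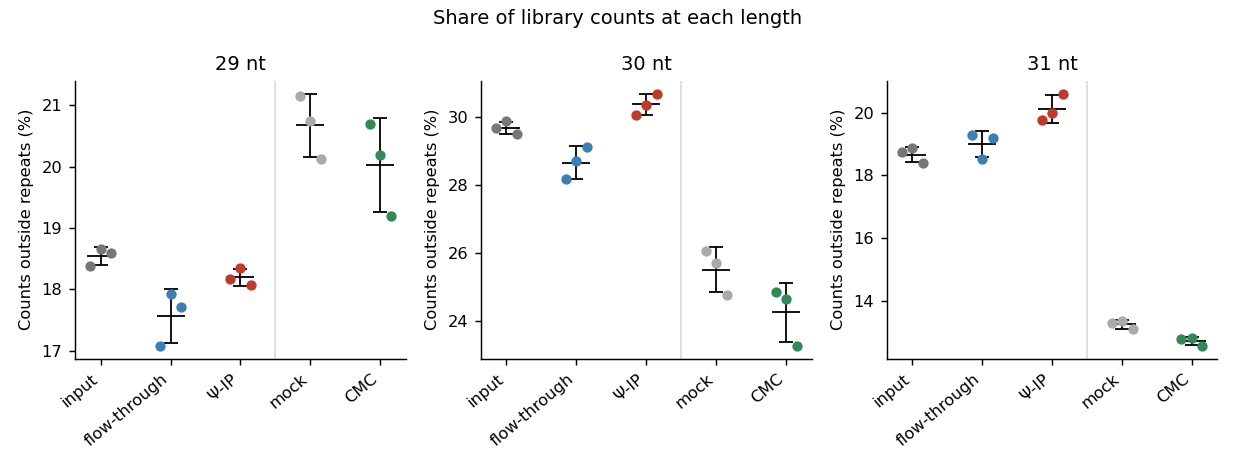
Share of the counts outside repeats at 29, 30 and 31 nt (percent) in each of the 15 libraries, with points for libraries, a bar for the group mean and whiskers for 1 SD (n = 3); the axes do not start at 0. Ψ-IP lies above input at 30 and 31 nt, and CMC lies below mock at 31 nt with no overlap.

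Single loci were tested where the 9 libraries of the Ψ-IP set, or the 6 of the CMC set, held more than 20 counts in total: 310762 and 191326 of the 2051623, which carried 94.0% and 97.0% of the class's counts. Against input, 21532 (6.93%) were higher in Ψ-IP and 35851 (11.5%) lower at an adjusted p under 0.01. The background over all 686863 loci tested was 5.45% higher and 10.7% lower, so the class exceeded the background on the higher side mainly. The share called higher was 5.71% for 29 nt, 7.34% for 30 nt and 7.61% for 31 nt, and 3.46% for loci of 25 to 27 nt outside repeats. The median log2 fold change was -0.15, -0.08 and 0.02 for the 3 lengths, against -0.10 over all loci. Without input replicate 1 the counts were 10514 higher and 21718 lower, and without input replicate 3, 10334 were higher.

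Against flow-through the balance was the other way, with 36328 loci (11.7%) higher in Ψ-IP and 13371 (4.30%) lower, beside a background of 9.3% and 3.56%. Both comparisons use the same Ψ-IP libraries. The 30-nt and 31-nt loci were called higher in 12.2% and 12.3% of cases and the 29-nt loci in 10.4%. Without Ψ-IP replicate 2 there were 8495 lower calls.

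With CMC 934 loci (0.488%) were higher and 2000 (1.05%) lower, beside a background of 1.07% and 0.654% over 556583 loci. The 3 lengths differed in the higher calls: 643 of the 29-nt loci (0.998%), 234 of the 30-nt loci (0.312%) and 57 of the 31-nt loci (0.11%) were higher. The lower calls were 601, 858 and 541, or 0.933%, 1.14% and 1.04%. The median log2 fold change was 2.07 for the higher calls and -0.79 for the lower. The size of the higher calls went with thin loci, however. Among those averaging at least 100 counts there were 206 higher calls (0.889%) and 1463 lower (6.31%), with medians of 0.74 and -0.72. The background above is over loci of any depth. No share over all loci of the same depth stands beside these shares, so they are not a trait of the class. With the replicate number as a block there were 3113 lower calls, and without mock replicate 2 there were 494 higher and 728 lower.

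The largest rise against input among well-covered 29-nt loci was at 4933440M02Rik, the fifth sequence shown. In Ψ-IP it had 23.3, 24.6 and 20.2 CPM, in contrast to 3.27, 3.56 and 3.66 in input and 2.23, 3.02 and 2.80 in flow-through. The choice required every Ψ-IP library to lie above every input library, and they lay above every flow-through library too. The log2 fold change against input was 2.55 (SE 0.25, edgeR adjusted p = 1.49e-21). It was at 0.0366 to 0.0842 CPM in the CMC set and too low to test there.

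The largest rises at the other lengths were of like size. The 30-nt locus chr3:124401251-124401280 (minus strand, 3′ UTR of 1700006A11Rik) had 14.5, 14.9 and 17.0 CPM in Ψ-IP and 2.51, 2.29 and 1.91 in input, a log2 fold change of 2.65 (SE 0.26). The 31-nt locus chr14:24113611-24113641 (plus strand, outside annotated genes) had 8.48, 17.45 and 11.2 in Ψ-IP and 1.20, 3.50 and 0.583 in input, a log2 fold change of 2.72 (SE 0.28). In this last case replicate 2 was the highest library in both groups.

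The largest falls were deeper. The 29-nt locus chr7:69904793-69904821 (minus strand, outside annotated genes) had 32.1, 25.4 and 29.99 CPM in input, 1.28, 0.432 and 0.836 in Ψ-IP and 6.42, 8.79 and 7.27 in flow-through, a log2 fold change of -5.23 against input (SE 0.30). The 30-nt locus chr9:44146825-44146854 (minus strand, 3′ UTR of Cbl, which encodes a ubiquitin ligase) had 15.8, 12.1 and 18.5 in input and 0.343, 0.173 and 0.292 in Ψ-IP, a log2 fold change of -5.91 (SE 0.36). The 31-nt locus chr9:54238232-54238262 (minus strand, intron or exon border of Cyp19a1, the gene of aromatase) had 11.6, 9.41 and 10.8 in input and 0.771, 0.518 and 0.209 in Ψ-IP, a log2 fold change of -4.70 (SE 0.35). All 3 were also lower in Ψ-IP than in flow-through, and in each of them flow-through lay between Ψ-IP and input.

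Against flow-through the largest rise was chr10:127699015-127699045 (31 nt, plus strand, 3′ UTR of Nemp1), at 11.3, 17.8 and 11.3 CPM in the Ψ-IP libraries, 6.10, 4.53 and 4.98 in input and only 1, 1 and 3 reads in the flow-through libraries (edgeR adjusted p = 8.65e-46). The largest fall was chr6:127800136-127800164 (29 nt, plus strand, outside annotated genes), with 16.4, 9.60 and 12.4 CPM in flow-through, 0, 4 and 7 reads in the Ψ-IP libraries and 0.424 to 1.09 CPM in input (edgeR adjusted p = 1.84e-30). At both loci input lay between Ψ-IP and flow-through in its group mean.

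The fold changes of the 3 lengths of 1 start site were correlated. At 51637 5′ ends all 3 lengths were tested in the Ψ-IP set, and these held 85.7% of the counts of the tested 5′ ends; in the CMC set there were 30465 with 91.1%. The modal length was 30 nt at 50.03% of them in the Ψ-IP set and 47.0% in the CMC set. Across 5′ ends with an average of at least 100 counts, the log2 fold changes of Ψ-IP against input had a correlation of 0.81 between 29 and 30 nt, 0.81 between 30 and 31 nt and 0.72 between 29 and 31 nt (17341 5′ ends, whose variants share libraries and sequence). For CMC against mock these were 0.62, 0.59 and 0.51 (14360 5′ ends). Of 10674 of these 5′ ends with any call in Ψ-IP against input, 4314 had 1 length called, 1068 had all 3 higher, 1761 all 3 lower and 75 held calls in opposite directions. With CMC 738 of 1187 had 1 length called.

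Within start sites, the longer variants had the higher values in Ψ-IP against input. The median log2 fold change against input was -0.17 for 29 nt, -0.01 for 30 nt and 0.17 for 31 nt over the 17341 5′ ends, and the 31-nt variant was above the 29-nt variant of its own start site at 66.8% of them. Against flow-through the medians were -0.01, 0.01 and 0.15, and the 31-nt variant was above at 54.2%. With CMC against mock the order was the opposite, with medians of 0.00, -0.05 and -0.09 and the 31-nt variant above the 29-nt variant at 37.2%. Over 19939 5′ ends with an average of at least 100 counts over the 15 libraries, the mean share of 31 nt was 28.5, 28.9 and 28.97% in Ψ-IP against 26.2, 26.6 and 26.01% in input and 27.3 to 27.8% in flow-through. The mean share of 29 nt was 27.2 to 27.6% in Ψ-IP, 29.1 to 29.7% in input and 27.5 to 28.1% in flow-through. The mean share of 30 nt was 43.8% ± 0.11 (SD, n = 3) in Ψ-IP, below the 44.3% ± 0.064 of input and the 44.6% ± 0.055 of flow-through. Ψ-IP did not overlap with input at any of the 3 lengths, nor with flow-through at 30 and 31 nt (exact p = 0.1 each). CMC had more 29 nt than mock, 33.1 to 33.3% against 32.3 to 32.6% (exact p = 0.1).

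A change of the 3′ end was tested for each 5′ end with edgeR's diffSpliceDGE, which asks whether the lengths of 1 start site change by unequal amounts. Of 97897 5′ ends with at least 2 of the 3 lengths tested, 6234 (6.37%) changed in Ψ-IP against input, beside 5.33% over all 5′ ends, which include other lengths. Of those with values for both ends of the range, the 31-nt variant gained on the 29-nt variant at 4024 and lost at 1428. With CMC 982 of 58524 (1.68%) changed, beside 1.29%, and there the 31-nt variant gained at 201 and lost at 613. The test takes in every length of a start site, also those outside 29 to 31 nt. These counts moved with single libraries: without input replicate 1 the first was 2498 and without mock replicate 2 the second was 407.

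Gm5878, a lncRNA locus, showed the largest such difference among the 3 most abundant start sites with a sequence. The 29-nt variant, which ends in U, made up 39.1, 42.6 and 39.6% of the 3 lengths in Ψ-IP, 19.6, 17.7 and 19.6% in input and 13.8, 14.3 and 12.6% in flow-through. The 30-nt variant, which ends in C, made up 55.8, 53.5 and 56.8% in Ψ-IP, 74.2, 76.2 and 73.7% in input and 81.2, 81.0 and 81.2% in flow-through. The order of the 3 groups was the same in every library. The 2 variants moved in opposite directions as loci, with log2 fold changes against input of 0.89 (SE 0.20, edgeR adjusted p = 9.97e-05) for 29 nt and -0.63 (SE 0.19, adjusted p = 0.00605) for 30 nt. The 31-nt variant, which ends in U again, was lower in Ψ-IP (log2 fold change -0.82, SE 0.22, adjusted p = 0.00208). In mock and with CMC the 29-nt share was 8.08% ± 0.63 and 7.84% ± 0.75 (SD, n = 3).

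The Gm49794 start site, where every variant ends in U, had the smallest p-value for a change of 3′ end in Ψ-IP (adjusted p = 5.7e-34 by diffSpliceDGE). Its 29-nt variant made up 8.81, 6.69 and 8.69% of the 3 lengths in Ψ-IP, 17.1, 14.7 and 16.7% in input and 24.4, 25.7 and 22.3% in flow-through. The 29-nt variant was at 13.8 ± 1.1 CPM (SD, n = 3) in Ψ-IP and at 14.4 ± 1.8 in input, while the 30-nt variant was at 111, 165 and 136 against 53.0, 76.8 and 69.1. The longer variants thus rose (log2 fold changes 0.92 and 1.14, SE 0.20 and 0.23) and the shortest did not pass the test.

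At Gm21269, where no variant ends in U, the 31-nt share was 21.99, 21.3 and 21.9% in Ψ-IP against 14.3, 16.65 and 13.6% in input. Here the shorter variants fell against input, by 1.08 (29 nt, SE 0.21) and 0.69 (30 nt, SE 0.18) on the log2 scale, and the 31-nt variant was at 232, 164 and 205 CPM in Ψ-IP and 189, 176 and 186 in input. The start site chr5:149823832 (minus strand, outside annotated genes), one of the 3 most abundant over the 15 libraries, had a 31-nt share of 21.4, 20.03 and 22.99% in Ψ-IP and 16.1, 14.7 and 15.5% in input. At chr18:67038739, another of that rank, the 31-nt share was 26.2, 30.1 and 25.3% in Ψ-IP and 23.2, 25.1 and 24.2% in input, close together but without overlap. At chr12:98447235, the third, it was 21.8, 28.6 and 22.6% against 18.7, 25.6 and 18.6%, and the groups overlapped.

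The second smallest p-value in Ψ-IP (diffSpliceDGE adjusted p = 1.86e-33) belonged to chr6:127790365 (minus strand, outside annotated genes). Its 30-nt variant had 114, 102 and 115 CPM in input, 67.4, 50.98 and 68.3 in flow-through and 16.5, 9.59 and 10.7 in Ψ-IP. The 30-nt share was 86.0% ± 3.0 (SD, n = 3) in Ψ-IP, against 92.1% ± 0.93 in input. With CMC the smallest p-value (adjusted p = 1.18e-29) was at chr17:27296026 (minus strand, outside annotated genes), whose 29-nt share was 21.9, 12.8 and 19.1% with CMC and 2.86, 2.84 and 4.43% in mock. That start lies 1 nt downstream of chr17:27295999-27296027, which had a mean of 2406 CPM in mock and 31.4 in input. The next (adjusted p = 7.55e-28) was at chr15:83355362 in 1700001L05Rik, with 27.96, 27.75 and 23.6% at 29 nt with CMC and 17.3, 14.03 and 14.9% in mock. There all 3 lengths lost to lengths outside 29 to 31 nt, with log2 fold changes relative to the whole start site of -0.59 for 29 nt, -1.31 for 30 nt and -0.81 for 31 nt, and the 29-nt locus itself did not pass the test (adjusted p = 0.085 by edgeR).

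The last base was then compared over all loci with a sequence. Among these, a U at the 3′ end accounted for 39.2, 40.2 and 39.4% of counts in Ψ-IP, 29.9, 30.7 and 30.4% in input and 25.3 to 25.5% in flow-through. The gap between Ψ-IP and input was 8.42 percentage points for 29 nt, 10.7 for 30 nt and 7.53 for 31 nt, and at each length it was larger there than at any other position. With each locus counted once, the gap at 31 nt was 3.61 points at the last base and 3.74 at the first. Between the ends, the largest difference was 2.82, 3.55 and 4.66 points for the 3 lengths. With CMC the share ending in U differed from mock by -0.94, -0.24 and 0.96 points for 29, 30 and 31 nt, and the groups overlapped at each length (exact p = 0.2, 0.6 and 0.3). The largest differences lay at positions 4, 9 and 15 for the 3 lengths, at -2.63, -2.51 and -2.68 points.

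Start sites were then split by the last base of their variants, a grouping chosen after values were seen. At 1523 5′ ends where the 30-nt variant ends in U and the 29-nt variant does not, 30 nt made up 70.3, 70.2 and 70.4% of the pair in Ψ-IP against 63.2, 64.9 and 63.9% in input. At 1415 5′ ends of the opposite kind it made up 53.0, 52.6 and 52.8% against 58.1, 58.3 and 57.3%. The variant that ends in U therefore had a larger share in Ψ-IP than in input in both kinds, whichever was longer. Where neither ended in U (3853 5′ ends) the share was 60.2% ± 0.25 in Ψ-IP, 58.5% ± 0.19 in input and 60.7% ± 0.57 in flow-through (SD, n = 3).

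In the pair of 30 and 31 nt, 31 nt was at 48.6% ± 0.79 in Ψ-IP and 41.4% ± 0.55 in input where the longer ends in U, and 31.2% ± 0.33 against 34.0% ± 0.44 where the shorter does. Where neither ended in U (3529 5′ ends), 31 nt was at 39.9, 39.1 and 39.7% in Ψ-IP. This was above the 36.7, 36.7 and 36.5% of input and the 37.3 to 38.1% of flow-through with no overlap (exact p = 0.1). The share of the longer variant was thus larger than in input there too, by 2.93 percentage points. Where exactly 1 variant of a pair ended in U, flow-through lay beyond input on the far side from Ψ-IP in all 4 cases. Each of these gave exact p = 0.1, with no overlap between Ψ-IP and input. With CMC the share of 30 nt was under that of mock in both kinds, 54.7% ± 0.44 against 55.5% ± 0.14 where the 30-nt variant ends in U and 58.4% ± 0.22 against 58.9% ± 0.21 where the 29-nt variant does (exact p = 0.1 each). Among the 5′ ends with a changed 3′ end in Ψ-IP, 560 of 717 variants ending in U (78.1%) gained on the rest of their start site, as did 687 of 1678 ending in another base (40.9%).

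**Figure D2:**
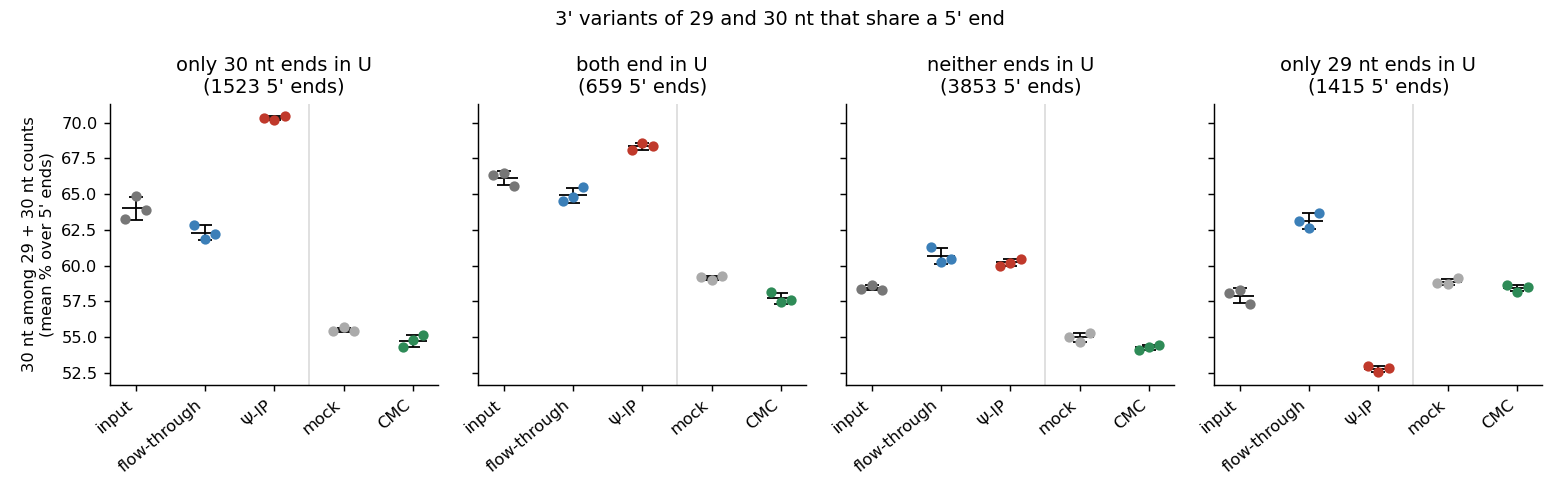
Share of the 30-nt variant (percent of 29-nt plus 30-nt counts, mean over 5′ ends) in each of the 15 libraries, with 5′ ends grouped by which variant ends in U; points are libraries, bars are group means and whiskers 1 SD (n = 3), and the axis does not start at 0. Ψ-IP is the highest group of its set where only the 30-nt variant ends in U and the lowest where only the 29-nt variant does.

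The number of uridines went with the fold change of a locus in every comparison, with the steepest course against flow-through. Loci with 12 or more uridines had a median log2 fold change of 1.97 in Ψ-IP against flow-through and those with 0 to 5 had -1.26. Of the first, 3388 of 11268 were higher and 22 lower, and of the second, 7 of 5337 were higher and 727 lower. Against input the medians were 0.40 and -0.19. Here the course was not even, with the lowest value at 6 to 8 uridines (-0.38).

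With CMC the direction was the reverse. Loci with 12 or more uridines had a median log2 fold change of -0.44 and those with 0 to 5 had 0.27. Of the 333 sequenced loci that were lower with CMC, 305 held 12 or more uridines and the other 28 held 9 to 11. The median ran from 0.36 at 3 uridines through -0.04 at 9 to -0.97 at 17. Over loci averaging 100 counts or more, Pearson's r between the number of uridines and the log2 fold change was -0.76 for CMC against mock (3384 loci), 0.69 for Ψ-IP against flow-through (1990 loci) and 0.20 for Ψ-IP against input (2186 loci). These describe loci within single comparisons, which share libraries and, in part, sequence.

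**Figure D3:**
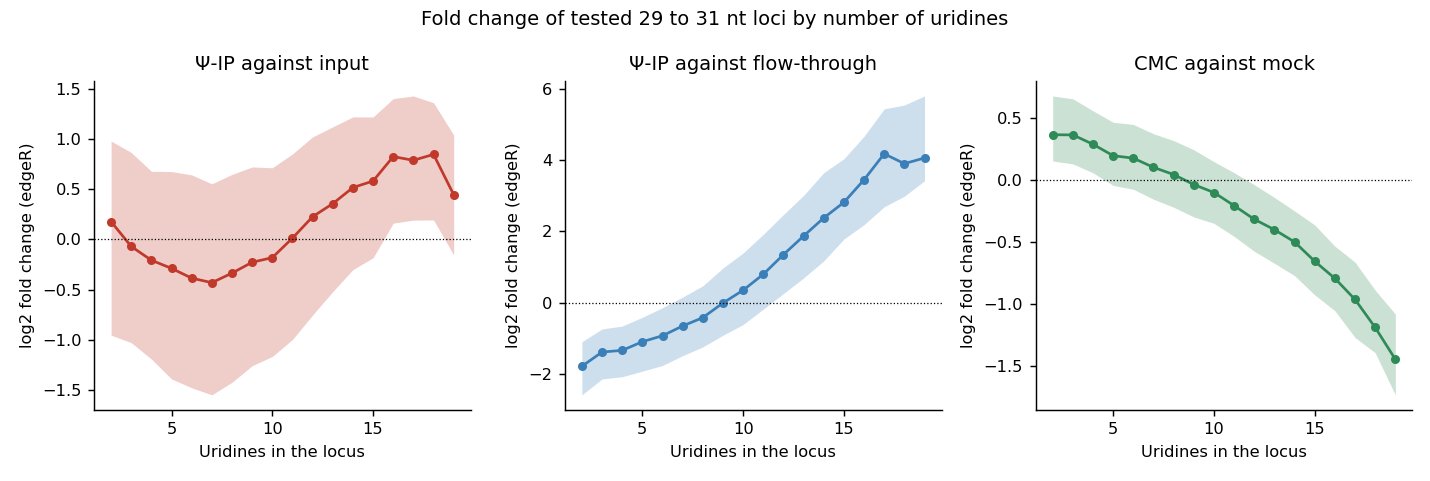
Median log2 fold change (line) and interquartile range (band) of tested loci of 29 to 31 nt with a reference sequence, by the number of uridines in the locus, for the 3 comparisons, with numbers of at least 20 loci shown. Values climb with uridines in Ψ-IP against flow-through and decline with CMC, where the median is -0.40 at 13 uridines.

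The largest falls with CMC were of like size at the 3 lengths, and a sequence was at hand for the first only. The 29-nt locus on the opposite strand of 5330409N07Rik, with 18 uridines, had 6.43, 6.13 and 6.56 CPM in mock and 2.15, 2.28 and 1.46 with CMC (log2 fold change -1.75, SE 0.17, edgeR adjusted p = 3.47e-10). The 30-nt locus chr12:98425055-98425084 (plus strand, outside annotated genes) had 5.11, 5.82 and 6.19 in mock and 2.29, 1.45 and 1.54 with CMC (-1.70, SE 0.18). The 31-nt locus chr17:66213637-66213667 (plus strand, outside annotated genes) had 5.70, 6.54 and 5.79 in mock and 2.02, 1.32 and 1.54 with CMC (-1.90, SE 0.18). In all 3, replicate 1 or 2 was the highest CMC library. Only loci with every CMC library below every mock library could be chosen here, so that separation is no result.

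The largest rise with CMC, at chr7:69886032-69886060 (29 nt, minus strand, outside annotated genes), had 0.168, 0.188 and 0 CPM in mock and 11.96, 9.65 and 10.7 with CMC (log2 fold change 6.33, SE 0.27, edgeR adjusted p = 6.68e-22). The locus that shares its 3′ end and starts 1 nt upstream, chr7:69886032-69886061, had 81.59, 77.3 and 63.65 in mock and 69.95, 64.46 and 50.14 with CMC. The 30-nt locus chr18:67038709-67038738 (minus strand) rose in the same way, with 0.253, 0.479 and 0.300 in mock and 4.56, 6.33 and 6.40 with CMC. It starts 1 nt downstream of an abundant start site of the class, whose 31-nt form had 1045, 1175 and 1203 CPM in mock and 967, 971 and 1040 with CMC.

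The relation was noticed in these calls, so the counts that follow describe them and carry no test. In a fit of loci averaging 100 counts or more alone, 25 of 366 loci higher with CMC (6.83%) started 1 nt downstream of a locus with the same 3′ end and at least 10 times their counts, as did 0.45% of those tested. Over the 934 higher loci of any depth it was 526 (56.3%). Neither share can be read against the tested loci directly, because a locus can pass either count minimum through CMC alone. For a thin locus, a partner with 10 times its counts is also easier to meet. By length the shares were 60.0% of the 643 risen loci of 29 nt, 54.7% of the 234 of 30 nt and 21.1% of the 57 of 31 nt, and the shares over all tested loci fell in the same order, at 4.51, 2.39 and 1.10%. The 31-nt locus with the largest rise, chr15:59257759-59257789, was not of this kind: it had 3.45, 3.05 and 3.39 in mock and 10.8, 10.4 and 10.9 with CMC, and its longer partner was at 0 to 0.025.

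Over 9700 abundant loci of 30 nt, those with an average of at least 100 counts in the CMC set, the locus that starts 1 nt downstream and ends at the same base had a median of 0.962, 1.095 and 1.13% of the 30-nt counts with CMC and 0.440, 0.459 and 0.439% in mock. These groups did not overlap (exact p = 0.1). The relation was noticed in these same libraries, so the exact p-values of this paragraph only describe them and are no test of it. With counts summed over the same loci, the locus 1 nt downstream had 21.2% of the 30-nt counts with CMC and 20.4% in mock, and the groups overlapped (exact p = 0.2), though it was higher with CMC in each of the 3 pairs of libraries with the same number. Starts 2 and 3 nt downstream had 9.79 and 6.76% of the summed counts with CMC against 8.87 and 5.80% in mock, with no overlap (exact p = 0.1 each). Loci with a sequence differed by first base. At 1327 with a 5′ U, starts 1 and 2 nt downstream had 28.6 and 7.01% with CMC against 26.4 and 6.25% in mock, with overlap at the first. At 102 with another 5′ base they were lower with CMC, at 8.34 and 5.42% against 9.78 and 6.35%. Summed over 29-nt loci, the share 1 nt downstream was 9.35% with CMC and 8.38% in mock, with no overlap (exact p = 0.1), and over 31-nt loci it was 34.3% with CMC and 34.4% in mock (exact p = 0.9). By the median, the share 1 nt downstream was 1.08% ± 0.11 with CMC and 0.400% ± 0.013 in mock for loci of 29 nt, and 1.34% ± 0.087 and 0.780% ± 0.021 for loci of 31 nt (SD, n = 3). The variant with the same 5′ end and 1 nt less at the 3′ end had a median of 36.6% ± 0.42 with CMC and 35.0% ± 0.38 in mock. In Ψ-IP the median share of the locus 1 nt downstream of 30-nt loci was 1.65% ± 0.31, in input 2.08% ± 0.022 and in flow-through 1.23% ± 0.15.

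**Figure D4:**
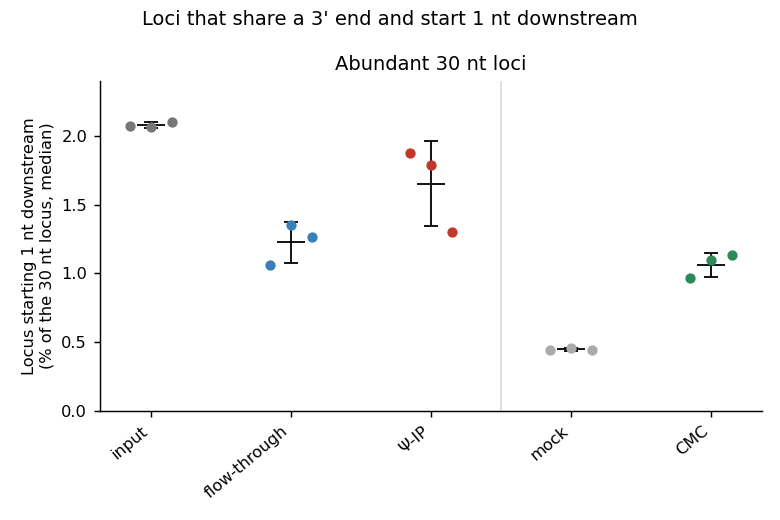
Median percent that the locus starting 1 nt downstream with the same 3′ end makes of abundant 30-nt loci in each of the 15 libraries; points are libraries, bars group means and whiskers 1 SD (n = 3). CMC is at 0.962 to 1.13 and mock at 0.439 to 0.459, with no overlap.

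Loci that were both higher in Ψ-IP than in input and lower with CMC came from comparisons that share no library. Of 132494 loci tested in both, 13562 were higher in Ψ-IP and 1884 lower with CMC, and 600 were both. These are 4.42% of the first list, where 1.42% of all loci tested in both were lower with CMC. They are 31.8% of the second, where 10.2% of all were higher in Ψ-IP. The shares were not matched for depth, and calls are more frequent among deep loci. Of loci averaging at least 100 counts, 25.8% were higher in Ψ-IP, beside 6.93% of all tested loci of the class. With CMC 6.31% were lower at that depth, beside 1.05%. By length the 600 were 163 of 29 nt, 268 of 30 nt and 169 of 31 nt. They lay in 68 clusters. Of them, 502 were also higher in Ψ-IP than in flow-through, a comparison that reuses the Ψ-IP libraries by which they were chosen. The 75 with a sequence held 13.9 uridines on average, and 94.7% of them started with U. Among tested loci with a sequence, 86.25% started with U in the Ψ-IP set and 83.85% in the CMC set. The share was 94.5% for all loci higher in Ψ-IP against input and 94.29% for all lower with CMC, so each list alone shows it. No mean number of uridines over the tested loci stands beside the 13.9. Beside the 600, 33 loci were higher in both comparisons and 97 lower in both.

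The most abundant of the 600 was chr17:66211442-66211470 (29 nt, plus strand, outside annotated genes). In Ψ-IP it had 876, 785 and 723 CPM, in contrast to 286, 319 and 270 in input and 68.1, 113 and 111 in flow-through, and 902, 779 and 794 with CMC against 1192, 1330 and 1175 in mock. Ψ-IP did not overlap with input or flow-through, nor CMC with mock (log2 fold change 1.30, SE 0.18, against input, adjusted p = 1.26e-10, and -0.64, SE 0.10, with CMC, adjusted p = 5.08e-05, both by edgeR). The next were chr5:113341402-113341430 (29 nt, plus strand) with log2 fold changes of 0.63 and -0.50, and chr6:127799200-127799229 (30 nt, plus strand) with 0.62 and -0.52.

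Summed over piRNA clusters, changes were small in size. Of 411 clusters, 48 (11.7%) were higher in Ψ-IP than in input and 42 (10.2%) lower, and the called changes ran from -0.81 to 0.73 on the log2 scale. The largest fall was at chr11:107991332-108001163, opposite Prkca, with 1910 ± 104 CPM in Ψ-IP, 3225 ± 230 in input and 2145 ± 111 in flow-through (SD, n = 3), a log2 fold change of -0.81 (SE 0.04). One locus there, chr11:107995808-107995836 (29 nt, plus strand), had 237, 215 and 278 in Ψ-IP and 1160, 922 and 1060 in input. The largest rise was at chr16:13412280-13418974 (0.73, SE 0.16), a cluster of 4.26 ± 0.15 CPM in input.

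With CMC 15 of 484 clusters (3.1%) were higher and 11 (2.27%) lower. The largest fall was at chr6:58097541-58105677, with 96.75 ± 9.2 CPM with CMC and 127 ± 7.1 in mock (log2 fold change -0.33, SE 0.04). The same cluster was at 257.5 ± 15.2 in Ψ-IP and 190 ± 9.1 in input (0.39, SE 0.05). The largest rise was at chr10:71378980-71385473 (0.19, SE 0.04). Without mock replicate 2 the counts were 2 and 3.

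Starts on opposite strands overlapped by 10 nt more often than by any other distance, in all 15 libraries. Such an overlap is the mark of ping-pong, in which 1 piRNA guides the cut that makes the 5′ end of another. The share of pairs of 5′ ends at 10 nt, among overlaps of 1 to 25 nt, was 7.30 to 7.98% in input, 8.40 to 9.44% in Ψ-IP, 8.66 to 9.40% in flow-through, 7.83 to 8.41% in mock and 7.75 to 8.55% with CMC, while every other overlap held 3.77 to 3.86% on average. The share was smallest in input replicate 1, which had the most pairs (147398), and in Ψ-IP it was smallest in replicate 3, the deepest of its group. Restricted to tested loci it was 16.2 to 17.4% in Ψ-IP, 15.96 to 16.5% in flow-through, which overlapped with Ψ-IP, 15.6 to 15.9% in input and 14.9 to 15.0% both in mock and with CMC.

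**Figure D5:**
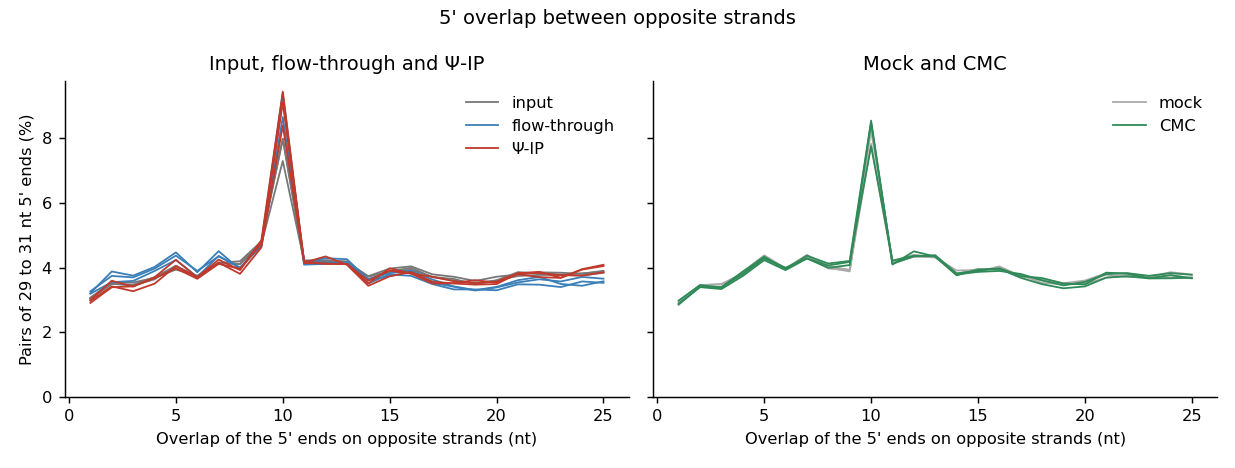
Percent of pairs of 5′ ends of 29-to-31-nt loci on opposite strands at each overlap from 1 to 25 nt, 1 line per library. The peak at 10 nt holds 7.30 to 9.44% of pairs in every library of both sets.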

How the data were processed

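Small RNA of mouse testis was sequenced in 15 libraries, 3 each of input, Ψ-IP, flow-through, mock and CMC, grouped by their labels. The authors clipped adaptors with Cutadapt, kept reads of 14 to 44 nt, set tRNA fragments aside, mapped the rest to mm10 with Bowtie 2 allowing up to 3 mismatches, and intersected alignments with repeats and piRNA clusters. How reads with several alignments were counted is not given in the sources used here. Deposited intervals reach 44 nt in the Ψ-IP set and 33 nt in the CMC set. The deposited values are raw counts per genomic interval and strand.

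Loci were joined by interval and strand (start counted from 1 in the text). Members were intervals of 29, 30 or 31 nt without a repeat name. Loci, 5′ ends and clusters were fitted over all loci with more than 20 counts (clusters: an average of at least 100) with edgeR 4.0.16 in R 4.3.3 (TMM, quasi-likelihood, Benjamini-Hochberg, adjusted p under 0.01), on 6 libraries for each comparison; standard errors are derived from the F statistic. Levels are CPM (counts scaled to a common library total) of the deposited counts, so abundant loci shape them. Single values were compared by exact two-sided permutation. On simulated data the fits recovered most of the larger changes of loci and of 3′ ends, but few of the smaller ones in Ψ-IP against input. Small changes there could thus be missed. All simulated features shared a common dispersion (spread between replicates), which real loci need not do, so recovery in the data can differ. Named loci were the 3 most abundant for each length, the largest called rise and fall with at least 100 counts on average and the same direction in all pairs of libraries, the most abundant 5′ ends, the smallest p-values for a 3′ change and the most abundant loci called in both assays. The members and lists were chosen with earlier results of these data known. Counts carry no molecular identifiers.

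Deviations from the group means were correlated between same-numbered libraries. For CMC and mock, r was 0.116, 0.137 and 0.281 among loci averaging over 50 counts, and 0.034, 0.051 and 0.124 over 10. At over 50 counts, CMC replicate 2 had a higher r with mock replicate 1, at 0.222, than with its own number. For Ψ-IP and input the values were 0.243, 0.296 and -0.03 over 50. Whether the numbers mark pairs was thus not settled in either set. Alternatives were DESeq2 1.42.0, its size factors, other count minimums, a replicate block, sums over a 5′ end and leaving out each library.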

Additional observations from a re-analysis of the deposited data

How the results depend on the processing

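The counts of calls below have no share over all loci of the same setting beside them, so they describe the settings and not the class. Depth limits what could be tested. With an average of at least 100 counts, 4722 loci were higher and 5185 lower in Ψ-IP than in input. Against flow-through there were 5447 and 4626, and with CMC 366 and 1151. DESeq2 called 14117 and 23826 against input and 565 higher with CMC. Without the count minimum there were 10060 higher against input, 8133 lower against flow-through, and 591 and 1166 with CMC. Counts summed over a 5′ end gave 22509 lower against input, 22531 higher against flow-through and 611 higher with CMC. Apart from DESeq2, these settings differ in the features they test; the cause of the lower counts with DESeq2 was not tested. Changed 3′ ends in Ψ-IP numbered 1940 with the Simes adjustment and 2257 at an average of at least 50 counts, against 596 with CMC. For clusters with CMC, DESeq2 called 25 higher and 17 lower. The share of risen loci 1 nt downstream was 6.83% at an average of at least 100 counts.

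The replicate block, which pairs libraries by number, gave 3113 lower loci and 7 lower clusters with CMC; the other counts of calls stayed within 1.5 times of those without pairing.

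Leaving out 1 library at a time gave 10334 to 24053 higher and 21718 to 34261 lower loci against input, 8495 to 12527 lower against flow-through, and 494 to 899 higher and 728 to 3141 lower with CMC. Changed 3′ ends ranged from 2498 to 6767 in Ψ-IP and from 407 to 997 with CMC. Clusters with CMC ranged from 2 to 20 higher and from 3 to 16 lower. The 10-nt overlap differed by -0.333 to 0.19 percentage points between Ψ-IP and flow-through and by -0.0642 to 0.356 between CMC and mock, so that neither has a stable direction.

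Some differences turned round, and the cause was not tested. With each locus counted once, the 29-nt share was 0.938 points higher in Ψ-IP than in input and 0.116 higher with CMC. With counts pooled over 5′ ends, the share of 30 nt was 0.162 points higher in Ψ-IP than in flow-through and that of 31 nt 0.0693 higher with CMC. Among loci with more than 20 counts the 10-nt overlap was 0.558 points higher in Ψ-IP than in flow-through. For single named loci, 68 values lost the threshold under an alternative or without a library, 647 kept it, and no direction changed.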
